A study of Mus musculus with 8 samples.

Results

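The Meis and Pbx homeobox genes were examined in the pharyngeal mesoderm and hearts of mouse embryos at E8.75 (6 somites). Meis1, Meis2, Meis3, Pbx2, Pbx3 and Pbx4 were taken by their symbols, 6 of the 20701 gene symbols counted. The rule that selected them used symbols and no measured values, but it was set with earlier results of these data known. Of several transcript entries of a symbol, the one with the highest summed read count stood for the gene. RNA-seq was carried out on 4 embryos of the genotype Isl1-/- (called Isl1 knockout here) and on 4 wild-type embryos, all of the strain C57BL/6, with 1 library for each embryo. The labels name no Cre driver and no treatment, and they do not describe the allele. Isl1 is a LIM-homeodomain factor that marks progenitors of the second heart field, and the study compared the genotypes to find its role in the cardiogenic region. Values of single embryos are given in the order of their replicate numbers, 1 to 4. In bulk tissue, fewer cells of a type and less RNA per cell cannot be told apart.

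Meis and Pbx proteins belong to the TALE class of homeodomain proteins, which carry additional residues in a loop between the first helices of the homeodomain. A Meis protein binds a Pbx protein, which helps to hold Pbx in the nucleus, and such pairs bind DNA together with Hox proteins and sharpen the choice of sites that a Hox protein makes alone. Both families are known for roles in patterning the hindbrain, limb and pharyngeal region, and mice that lack Meis1 or several Pbx genes have malformed outflow tracts and septa. Meis1 is also known for stopping the cell cycle of heart muscle cells after birth, and Meis2 for its role in neural crest cells.

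The DNA-binding part of each protein is its homeodomain, and the homeobox that encodes it shows how far the paralogues can be told apart by their reads. In the mm9 genome Meis1 lies at chr11:18780433-18918961 (minus strand), Meis2 at chr2:115688800-115891575 (minus) and Meis3 at chr7:16760729-16771853 (plus). Pbx2 lies at chr17:34728211-34734345 (plus), Pbx3 at chr2:34026977-34228660 (minus) and Pbx4 at chr8:72356523-72397062 (plus). Each homeobox spans 189 coding bases for 63 residues and is split over 3 exons, exons 8 to 10 of the Meis transcripts and 4 to 6 of the Pbx transcripts. With the introns between them, these parts lie at chr11:18785618-18841736 in Meis1, chr2:115694503-115825941 in Meis2 and chr7:16767743-16769423 in Meis3. In Pbx2, Pbx3 and Pbx4 they lie at chr17:34731369-34731793, chr2:34033815-34068776 and chr8:72388909-72393975. The sequences come from the GENCODE vM1 transcripts, read 5′ to 3′ on the coding strand, and capitals mark bases that differ from Meis1 among the Meis genes or from Pbx2 among the Pbx genes.
Meis1: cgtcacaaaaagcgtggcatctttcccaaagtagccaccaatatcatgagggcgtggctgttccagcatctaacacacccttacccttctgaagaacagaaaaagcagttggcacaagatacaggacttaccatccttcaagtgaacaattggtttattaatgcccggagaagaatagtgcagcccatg
Meis2: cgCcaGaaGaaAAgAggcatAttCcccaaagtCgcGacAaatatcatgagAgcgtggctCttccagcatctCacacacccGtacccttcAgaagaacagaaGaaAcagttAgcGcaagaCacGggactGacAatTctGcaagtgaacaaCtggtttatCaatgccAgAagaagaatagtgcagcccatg
Meis3: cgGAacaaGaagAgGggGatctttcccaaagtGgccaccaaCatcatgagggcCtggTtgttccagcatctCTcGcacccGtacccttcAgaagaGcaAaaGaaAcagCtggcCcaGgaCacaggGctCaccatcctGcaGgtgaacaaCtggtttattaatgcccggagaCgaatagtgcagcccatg
Pbx2: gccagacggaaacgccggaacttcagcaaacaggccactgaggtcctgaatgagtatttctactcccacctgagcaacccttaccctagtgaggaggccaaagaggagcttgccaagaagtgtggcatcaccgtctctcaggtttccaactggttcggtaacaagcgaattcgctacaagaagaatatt
Pbx3: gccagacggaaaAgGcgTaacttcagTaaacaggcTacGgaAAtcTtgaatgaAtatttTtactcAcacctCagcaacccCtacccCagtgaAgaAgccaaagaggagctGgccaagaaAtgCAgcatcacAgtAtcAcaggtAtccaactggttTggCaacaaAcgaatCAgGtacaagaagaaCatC
Pbx4: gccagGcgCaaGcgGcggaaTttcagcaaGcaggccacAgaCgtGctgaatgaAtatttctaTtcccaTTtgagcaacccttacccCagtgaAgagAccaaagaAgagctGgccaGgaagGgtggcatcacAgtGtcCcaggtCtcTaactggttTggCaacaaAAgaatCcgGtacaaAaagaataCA

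The protein product is much closer between paralogues than the DNA. Meis1 and Meis2 shared 98.4% of homeodomain residues and 84.1% of homeobox bases. Meis3 shared 96.8% of its homeodomain residues with Meis1 and with Meis2. Pbx4 was the most distant member, with 92.1% of residues shared with Pbx2 and 88.9% with Pbx3, against 96.8% between Pbx2 and Pbx3. The longest run of identical bases between paralogues was 28 bases among the Meis transcripts, in Meis2 and Meis3, and 20 bases among the Pbx transcripts, in Pbx2 and Pbx4. A read longer than these runs could be assigned to 1 paralogue of its family. The read length was not given in the sources used here.

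Total counts ranged from 23480470 to 26153039 per library in wild-type and from 18916452 to 25047013 in knockout embryos, the lowest being knockout embryos 3 and 4. Isl1 itself was 17.4 ± 8.98 counts per 1000000 reads (CPM) in wild-type and 2.16 ± 0.276 CPM in knockout embryos (SD, n = 4; log2 fold change -3.00, SE 0.36, edgeR FDR 0.0041). The summed level of 7 cardiomyocyte markers was 1617 to 2248 CPM in wild-type and 777 to 1244 CPM in knockout embryos, with all 7 lower and at an unadjusted p-value below 0.05 (17.4% of all genes). At an edgeR FDR of 0.05 (0.973% of all genes), 5 of the 7 fell, namely Myh6, Myh7, Myl7, Tnnt2 and Actn2, while Nppa (log2 fold change -1.21, edgeR FDR 0.238) and Myl2 (-0.88, edgeR FDR 0.145) did not pass. Without knockout embryos 3 and 4, a choice made after seeing the data, 2 of the 7 passed and all 7 stayed lower. The summed neural tube markers reached 310 to 340 CPM in wild-type and 301 to 408 CPM in knockout embryos, and the neural crest markers 121 to 141 and 108 to 196 CPM. The erythroid markers ranged from 355 to 2277 and from 1205 to 3002 CPM. Wild-type embryo 3 held the lowest wild-type sum of the cardiomyocyte markers (1617 CPM). It was also lowest for the erythroid markers (355 CPM, against 1124 to 2277 CPM in the other wild-type embryos). For the second heart field markers it was the highest (135 CPM, against 60.6 to 83.9 CPM). No gene of the neural tube, neural crest, erythroid, endoderm, endothelial or paraxial and caudal mesoderm markers passed the edgeR FDR. Among them, 1 endothelial marker had an unadjusted p-value below 0.05. Of 6 second heart field markers, only Isl1 passed the edgeR FDR. Fgf10 and Tbx1 also had an unadjusted p-value below 0.05. Fgf10 was lower with no overlap (log2 fold change -0.55, edgeR FDR 0.148), as 10.3% of all genes did not overlap. Tbx1 was higher with overlapping groups (0.98, edgeR FDR 0.248). Posterior Hox genes, which mark the trunk, were counted as Hoxa9, Hoxa10, Hoxa11 and Hoxd10. Together they held 1 to 3 reads in each wild-type library. They held 0 and 2 reads in knockout embryos 1 and 2, 28 in knockout embryo 3 and 152 in knockout embryo 4. Knockout embryo 2 was labelled as total RNA, whereas the other 7 were labelled as polyA RNA. The part of these differences in the Meis and Pbx values was not tested.

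To compare the paralogues with each other, levels were set per kilobase of transcript, as reads per kilobase and per 1000000 reads (RPKM) after TMM scaling of the libraries. Pbx2 was the most abundant with 65.6 RPKM on average over the 8 embryos. It was followed by Meis2 (34.6 RPKM), Pbx3 (27.5), Meis1 (21.8), Meis3 (17.0) and, far below, Pbx4 (2.27). Pbx2 was 1.90-fold above Meis2, and the steps from Meis2 to Pbx3, from Pbx3 to Meis1 and from Meis1 to Meis3 were 1.26-, 1.26- and 1.28-fold. Meis3 was 7.82-fold above Pbx4. In each of the 5 neighbouring pairs the higher gene was higher in 8 of 8 embryos. The order was therefore the same in both genotypes. An exact two-sided paired permutation test gave p = 0.0078 for each pair, the smallest value 8 embryos allow. It was 0.0078 after adjustment over the 5 pairs. The neighbours were set by the means of these same embryos, so the test adds little to that count. The size of a step varied between embryos, and Meis1 and Meis3 were at 17.85 and 17.80 RPKM in wild-type embryo 3.

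**Figure D1:**
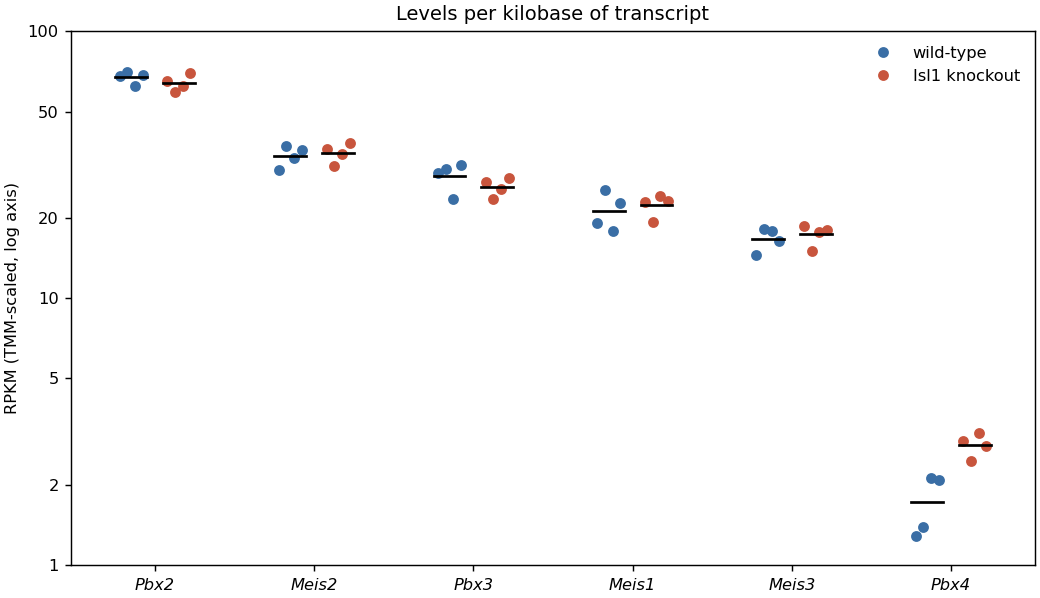
Level of each gene in RPKM (TMM-scaled, log axis) in each of the 4 wild-type (blue) and 4 Isl1 knockout (red) embryos, with the mean of each genotype as a line. Pbx2 lies highest and Pbx4 lowest in both genotypes, and Pbx4 is the gene whose groups do not overlap.

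Meis1 was counted on an entry of 3426 bases, NM_001193271. Its normalised level was 65.3, 87.1, 61.1 and 78.1 CPM in the wild-type group and 78.3, 66.0, 82.5 and 79.4 CPM in the knockout group. The groups overlapped: wild-type embryo 2 was the highest and wild-type embryo 3 the lowest of all 8. The means were 72.9 ± 11.9 CPM in wild-type and 76.5 ± 7.25 CPM in knockout embryos (SD, n = 4). The estimated log2 fold change, knockout over wild-type, was 0.07 (SE 0.12, edgeR FDR 0.798), and its 95% interval ran from 0.875-fold to 1.26-fold. Its sign rested on single libraries, since it was -0.01 without wild-type embryo 3 and -0.02 without knockout embryos 3 and 4. An antisense gene, Gm16140, which was not analysed here, overlaps 12.1% of the annotated exon bases of Meis1, and reads were counted without regard to strand.

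Meis2 was the most abundant of the Meis genes. It was measured at 148, 181, 163 and 175 CPM in the wild-type group and at 176, 153, 169 and 186 CPM in the knockout group. Wild-type embryo 1 and knockout embryo 2 were the low embryos, and the groups overlapped. The mean was 167 ± 14.5 CPM in wild-type and 171 ± 14.0 CPM in knockout embryos (SD, n = 4). The estimated log2 fold change was 0.04 (SE 0.08, edgeR FDR 0.846), with a 95% interval from 0.905-fold to 1.16-fold. Without wild-type embryo 1, or without knockout embryo 4, it was -0.01, and without knockout embryos 3 and 4 it was -0.02. Meis2 had 15 transcript entries, and the lowest of them held 94.5% of the reads of the highest, so that the counts do not separate its isoforms.

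Meis3, the least abundant Meis gene, reached 25.5, 32.1, 31.3 and 28.8 CPM in the wild-type group. In the knockout group it reached 32.7, 26.3, 31.2 and 31.6 CPM. As for Meis2, wild-type embryo 1 and knockout embryo 2 were lowest in their groups. The means of 29.4 ± 2.96 and 30.5 ± 2.83 CPM (SD, n = 4) gave a log2 fold change of 0.05 (SE 0.10, edgeR FDR 0.831; 95% interval 0.885-fold to 1.21-fold). It was -0.01 without wild-type embryo 1 and 0.01 without knockout embryos 3 and 4. The 3 Meis genes therefore had estimates near 0 whose sign depended on single embryos.

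Pbx2 showed the smallest spread of the 6 genes, with an SD of 0.0878 within genotypes on the log2 CPM scale. It was measured at 189, 196, 174 and 191 CPM in the wild-type group and at 181.0, 165, 174 and 194 CPM in the knockout group. Only knockout embryo 2 lay below the wild-type range. The means were 187 ± 9.72 CPM in wild-type and 178 ± 12.2 CPM in knockout embryos (SD, n = 4). The estimated log2 fold change was -0.07 (SE 0.07, edgeR FDR 0.620), with a 95% interval from 0.860-fold to 1.05-fold, while it was -0.03 without knockout embryo 2 and -0.12 without knockout embryos 3 and 4. Pbx2 shares 6.24% of its annotated exon bases with Gpsm3, a gene at 3.55 to 5.14 CPM.

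Pbx3 was measured at 83.8, 86.8, 67.0 and 89.4 CPM in the wild-type group and at 77.6, 66.9, 73.1 and 79.9 CPM in the knockout group. All 4 knockout embryos lay below wild-type embryos 1, 2 and 4, while wild-type embryo 3 lay among the knockout embryos. The mean was 81.7 ± 10.1 CPM in wild-type and 74.4 ± 5.75 CPM in knockout embryos (SD, n = 4). The estimated log2 fold change was -0.14 (SE 0.10, edgeR FDR 0.503), with a 95% interval from 0.782-fold to 1.06-fold. It was -0.22 without wild-type embryo 3 (edgeR FDR 0.110) and -0.08 without knockout embryo 2 (edgeR FDR 0.726). Without knockout embryos 3 and 4 it was -0.18, and with Y-linked expression, which marks male embryos, as a covariate it was -0.23 (edgeR FDR 0.393, unadjusted p from edgeR 0.0473).

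Pbx4, a Pbx gene best known from the testis, was the one whose groups stood apart. Its reads numbered 41, 42, 67 and 73 in the wild-type group and 101, 79, 80 and 76 in the knockout group. Scaled to library size, these were 1.71, 1.86, 2.82 and 2.78 CPM in wild-type and 3.90, 3.27, 4.18 and 3.72 CPM in knockout embryos. Every knockout embryo lay above every wild-type embryo, while wild-type embryos 1 and 2 lay well below wild-type embryos 3 and 4. The mean was 2.29 ± 0.588 CPM in wild-type and 3.77 ± 0.381 CPM in knockout embryos (SD, n = 4), 1.64-fold higher. The estimated log2 fold change was 0.71 (SE 0.21), with a 95% interval from 1.19-fold to 2.26-fold. Pbx4 did not pass the threshold after adjustment over all genes (edgeR FDR 0.132, unadjusted p from edgeR 0.00624). An exact two-sided permutation test on its log2 CPM values gave p = 0.0286, the smallest value 4 against 4 embryos allow. Any gene whose groups do not overlap, 10.3% of all genes, has this value, so it restates the lack of overlap. Under DESeq2 the FDR was 0.0647. On the log2(RPKM + 1) scale of limma, which understates changes of low genes, the difference was 0.44 (FDR 0.089), below the 1.5-fold threshold of the study (0.58 on the log2 scale). With Y-linked expression as a covariate it was 0.56 (edgeR FDR 0.360).

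At this depth a single Pbx4 value was uncertain by counting alone. The 41 reads of wild-type embryo 1 allowed 1.23 to 2.32 CPM and the 79 reads of knockout embryo 2 allowed 2.59 to 4.08 CPM (95% exact Poisson intervals, which cover counting error only). The intervals of wild-type embryo 3, 2.19 to 3.59 CPM, and of knockout embryo 2 overlapped. Without knockout embryo 2 the Pbx4 log2 fold change was 0.78 (edgeR FDR 0.138), and without knockout embryos 3 and 4 it was 0.64 (edgeR FDR 0.544).

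**Figure D2:**
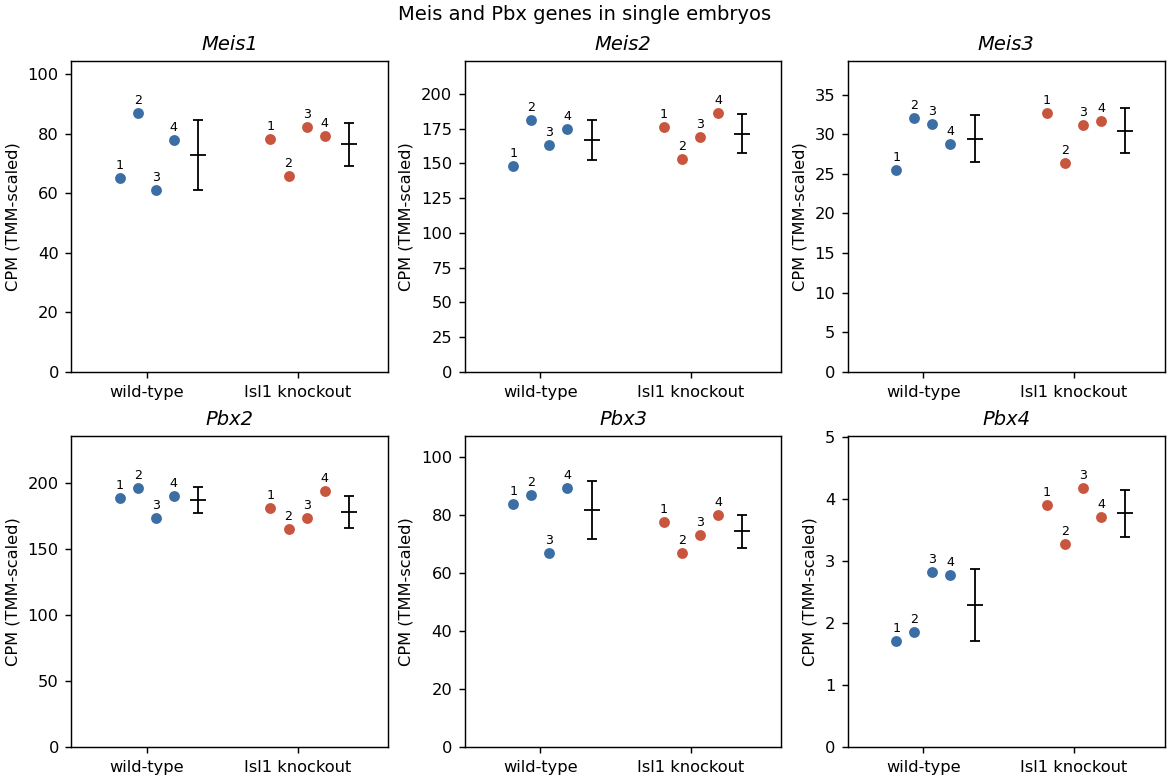
Level of each gene in CPM (TMM-scaled, axes from 0) in single embryos, numbered 1 to 4 within each genotype, with the mean and SD of the genotype beside them. Groups overlap for 5 genes, while Pbx4 is at 1.71 to 2.82 CPM in wild-type and 3.27 to 4.18 CPM in knockout embryos, and knockout embryo 2 is the lowest of its genotype in all 6 panels.

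Knockout embryo 2 held the lowest CPM of its genotype for 6 of the 6 genes, and their summed level there, 481 CPM, was the lowest of the 8 embryos (499 to 586 CPM in the others). It is also the library labelled total RNA. The share of all genes with their lowest knockout value in this embryo was not counted. The 6 of 6 is therefore not shown to be particular to these genes. Leaving out knockout embryo 2 moved the log2 fold changes of Meis1, Meis2 and Meis3 to 0.14, 0.09 and 0.12, and none passed the edgeR FDR (0.576, 0.596 and 0.562). Among wild-type embryos no such pattern was seen, since embryo 1 was lowest for Meis2, Meis3 and Pbx4 and embryo 3 for Meis1, Pbx2 and Pbx3.

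Over the 6 genes, 0 passed an edgeR FDR of 0.05, and 1 had an unadjusted p-value below 0.05. DESeq2 and limma also called 0 at the FDR and 1 at the unadjusted p. Of the 14075 genes fitted, 0.973% passed the FDR and 17.4% the unadjusted p. The thresholds of the study, more than 1.5-fold at an unadjusted p-value below 0.05, were passed by Pbx4 alone, against 3.93% of all genes in either direction and 1.67% higher in the knockout. Genotypes did not overlap in 1 of the 6 genes, Pbx4, against 10.3% of all genes in either direction and 3.96% higher in the knockout. The estimate was above 0 for 4 genes and below 0 for 2, with a median log2 fold change of 0.04 (0.01 over all genes). The 95% intervals of Meis1, Meis2, Meis3, Pbx2 and Pbx3 lay within 1.5-fold either way, 5 of 6 genes, as did 68.5% of all genes fitted. For these 5 genes a change beyond 1.5-fold lay outside the interval. The intervals were narrower than that, and reached 0.782-fold at the lowest (Pbx3) and 1.26-fold at the highest (Meis1). Changes within the interval of a gene could not be told from 0.

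**Figure D3:**
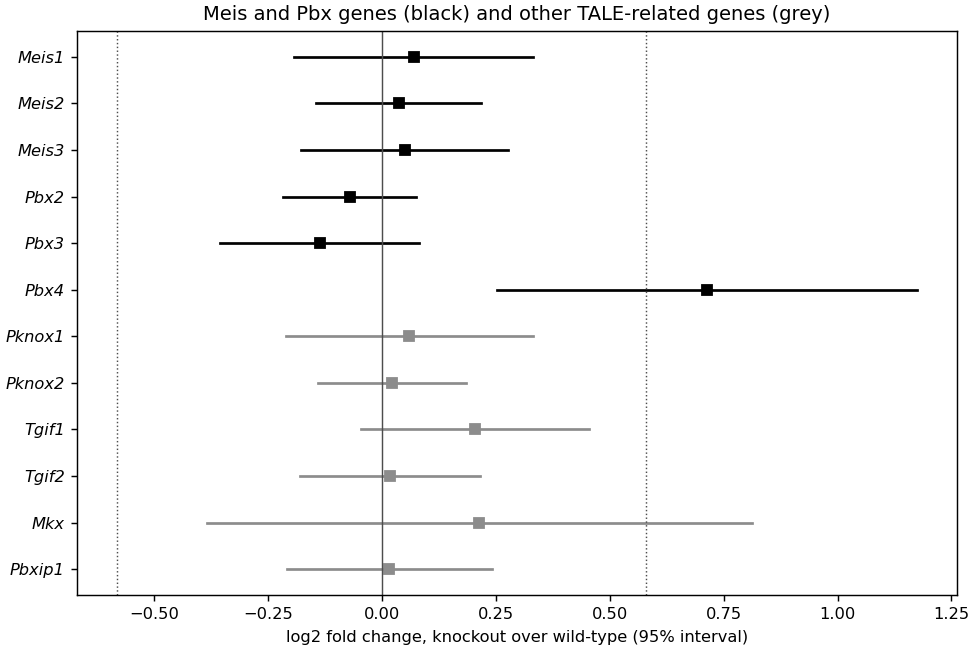
Log2 fold change, knockout over wild-type, with its 95% interval from edgeR, for the Meis and Pbx genes (black) and other TALE-related genes (grey). Dotted lines mark 1.5-fold either way. The interval of Pbx4 runs from 0.25 to 1.17, above 0, and all the others span 0.

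The balance between paralogues was then compared within each embryo, as a ratio of counts per kilobase that does not depend on how libraries are scaled. Meis2 made up 47.4 ± 1.04% of the summed Meis level in wild-type and 46.9 ± 1.27% in knockout embryos. Meis1 made up 29.4 ± 2.47% and 29.9 ± 1.07%, and Meis3 23.2 ± 1.74% and 23.2 ± 0.588% (SD, n = 4). The log2 ratio of Meis2 to Meis1 differed by -0.04 between genotypes, that of Meis3 to Meis1 by -0.03 and that of Meis3 to Meis2 by 0.01. These differences were smaller than the spread between embryos (exact two-sided permutation tests, p = 0.743, 0.971 and 0.857, and 0.971 each after adjustment over 7 ratios). Leaving out wild-type embryo 3 turned them to 0.03, 0.08 and 0.05.

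Among the 3 Pbx genes examined, Pbx2 made up 68.9 ± 1.51% of their summed level in wild-type and 68.8 ± 0.617% in knockout embryos. Pbx3 made up 29.4 ± 1.76% and 28.1 ± 0.440%. Other Pbx genes are not part of this sum. The log2 ratio of Pbx3 to Pbx2 differed by -0.06 between genotypes (exact two-sided permutation test, p = 0.371, adjusted 0.65), and by -0.12 without wild-type embryo 3 and -0.02 without wild-type embryo 4. Pbx4 made up 1.30% to 2.40% of the sum in wild-type and 2.77% to 3.43% in knockout embryos.

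Against Pbx2, Pbx4 stood at 1.89%, 1.98%, 3.39% and 3.04% in the wild-type group and at 4.50%, 4.14%, 5.02% and 4.0% in the knockout group. Against Pbx3 it stood at 4.34%, 4.56%, 8.95% and 6.60% in wild-type and at 10.7%, 10.4%, 12.2% and 9.90% in knockout embryos. The groups did not overlap in either ratio. The log2 ratios differed by 0.82 and 0.88 between genotypes (exact two-sided permutation test, p = 0.0286 for each, the smallest possible, adjusted 0.1 over 7 ratios). Without knockout embryos 3 and 4 they differed by 0.79 and 0.85. These ratios share the Pbx4 reads with the comparison of its level and are not separate evidence. Summed Meis over summed Pbx was 0.740 in wild-type and 0.803 in knockout embryos, a log2 difference of 0.12 with overlapping groups (exact two-sided permutation test, p = 0.114, adjusted 0.267). Without wild-type embryo 1 the difference was 0.06.

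**Figure D4:**
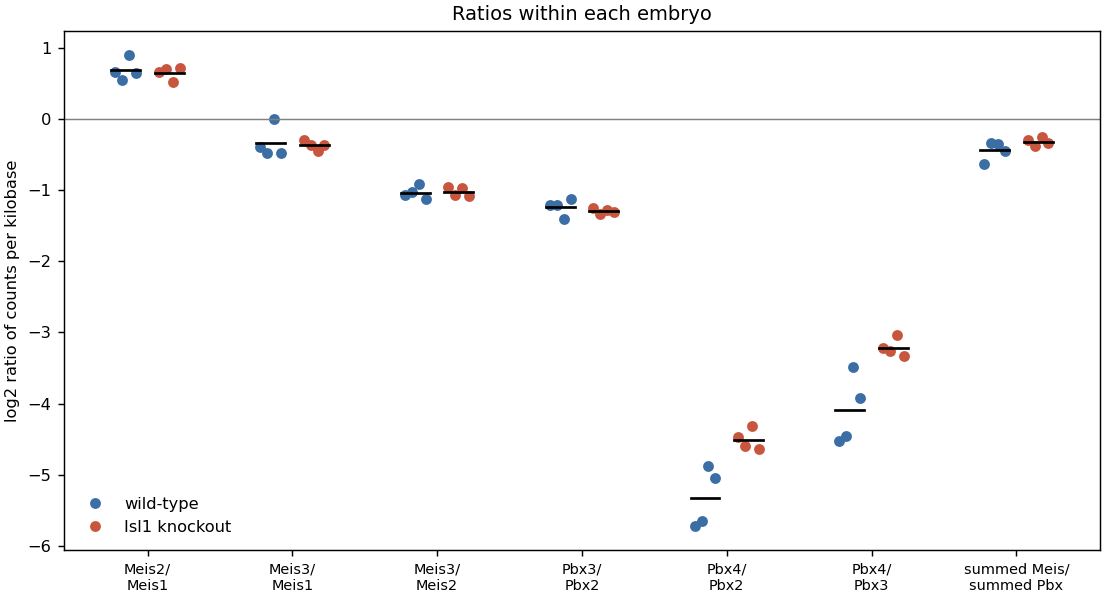
Log2 ratio of counts per kilobase between paralogues within each embryo, with the mean of each genotype as a line, for 4 wild-type (blue) and 4 knockout (red) embryos. The ratios of Pbx4 to Pbx2 and to Pbx3 lie higher in all 4 knockout embryos, and the other 5 ratios overlap.

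Other genes of the TALE class were examined beside them. Pknox1 and Pknox2 encode Meis-related proteins that also bind Pbx, Tgif1 and Tgif2 encode TALE repressors, Mkx is a tendon factor, and Pbxip1 encodes a protein that binds Pbx and is itself no homeodomain protein. Of these 6 genes, 0 passed the edgeR FDR and 0 an unadjusted p-value under 0.05 (limma gave 0 and 1, DESeq2 0 and 0). Their log2 fold changes were 0.06 for Pknox1, 0.02 for Pknox2, 0.21 for Tgif1, 0.02 for Tgif2, 0.21 for Mkx and 0.02 for Pbxip1, with a median of 0.04 (0.01 over all genes). Pknox2 was measured at 82.6 ± 4.99 CPM in wild-type and 83.9 ± 6.56 CPM in knockout embryos, close to Pbx3 in read number.

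Of the Iroquois genes, TALE genes that pattern the heart and neural plate, 5 of 6 were fitted and 0 passed the edgeR FDR, with 1 at an unadjusted p-value below 0.05 and a median log2 fold change of 0.12. That gene was Irx4, a ventricular factor, at 11.4 to 13.8 CPM in wild-type and 7.09 to 9.72 CPM in knockout embryos, with no overlap. Its log2 fold change was -0.60 (SE 0.13, edgeR FDR 0.0621, DESeq2 FDR 0.00220). Limma called 0 genes of this list at the FDR and DESeq2 called 1 (Irx4). With edgeR, Irx4 passed the FDR with Y-linked expression as a covariate (-0.72, FDR 0.0488) and without wild-type embryo 3 (-0.64, FDR 0.0399), and without knockout embryos 3 and 4 it was -0.72 (FDR 0.221). The summed cardiomyocyte markers, given above, were lower in the same embryos, and their part in the Irx4 values was not tested. Irx3 and Irx2 had log2 fold changes of 0.33 and 0.12 (edgeR FDR 0.324 and 0.517).

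The Hox genes of paralogue groups 1 to 4 are the best known DNA-binding partners of Pbx and Meis in the pharyngeal region. All 12 were fitted and all 12 had estimates above 0, with a median log2 fold change of 0.31 (0.01 over all genes), but 0 passed the edgeR FDR and 2 had an unadjusted p-value below 0.05 (DESeq2 0 and 3, limma 0 and 4). Hoxb3 was measured at 30.8 ± 6.46 CPM in wild-type and 41.5 ± 6.49 CPM in knockout embryos (log2 fold change 0.43, SE 0.16, edgeR FDR 0.209). Hoxb2 was measured at 22.6 ± 3.09 and 27.4 ± 0.950 CPM (log2 fold change 0.28, SE 0.10, edgeR FDR 0.211) and Hoxb1 at 21.7 ± 3.71 and 26.5 ± 2.34 CPM (log2 fold change 0.29, SE 0.13, edgeR FDR 0.295). The summed level of the 12 genes was 122, 225, 166 and 177 CPM in the wild-type group and 217, 185, 231 and 245 CPM in the knockout group. The low value was that of wild-type embryo 1, which was also lowest for Meis2 and Meis3, the highest were those of knockout embryos 3 and 4, and the groups overlapped. Without knockout embryos 3 and 4, the libraries with the most posterior Hox reads, 8 of the 12 estimates were above 0. The median was then 0.17 and 0 passed the edgeR FDR. The 4 genes of paralogue group 4 then turned below 0, among them Hoxd4, from 0.45 to -0.31, and Hoxc4, from 0.32 to -0.41. Hoxd4 was at 14.2 and 9.89 CPM in knockout embryos 3 and 4 and at 5.03 and 5.06 CPM in knockout embryos 1 and 2. In wild-type embryos 1 to 4 it was at 2.88, 12.15, 3.54 and 6.39 CPM. Wild-type embryo 2, with 1 posterior Hox read, thus lay above knockout embryo 4. It was also the highest of the 8 embryos for Hoxb4 (14.8 CPM) and Hoxc4 (7.23 CPM), though not for Hoxa4. Without wild-type embryo 1 the median was 0.19 and 11 of 12 estimates were above 0. Leaving out wild-type embryo 2 moved the median the other way, to 0.51, with 12 of 12 above 0 and 0 past the edgeR FDR.

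Retinoic acid signalling sets the Hox domains of this region and is known to act on Meis genes. Of 12 genes of its synthesis, breakdown and reception, all 12 were fitted and 0 passed the edgeR FDR, while 2 had an unadjusted p-value below 0.05 (median log2 fold change 0.12; DESeq2 called 1 at the FDR, limma 0). Cyp26b1, which breaks retinoic acid down, was measured at 14.5 CPM in wild-type and 25.3 CPM in knockout embryos, with overlapping groups. Its log2 fold change was 0.80 (SE 0.24, edgeR FDR 0.143, DESeq2 FDR 0.0209). Rdh10, an enzyme of retinoic acid synthesis, had a log2 fold change of -0.34 (SE 0.12, edgeR FDR 0.197) and Dhrs3, which turns retinal back to retinol, of 0.53 (SE 0.31, edgeR FDR 0.418).

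Of 5 genes known as Meis1 targets in heart and blood, Cdkn2a and Cdkn2b were too low to be fitted. Of the 3 fitted, 0 passed the edgeR FDR and 1 reached an unadjusted p-value below 0.05, with a median log2 fold change of 0.09 (DESeq2 called 1 at the FDR, limma 0). That gene was Hif1a, the oxygen-regulated transcription factor, at 347 CPM in wild-type and 266 CPM in knockout embryos, with no overlap (log2 fold change -0.38, SE 0.09, edgeR FDR 0.0772, DESeq2 FDR 0.00493). Epas1 and the cell-cycle inhibitor Cdkn1a had log2 fold changes of 0.31 and 0.09 (edgeR FDR 0.707 and 0.848). Meis1 itself differed by 0.07 on the same scale, as given above.

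**Figure D5:**
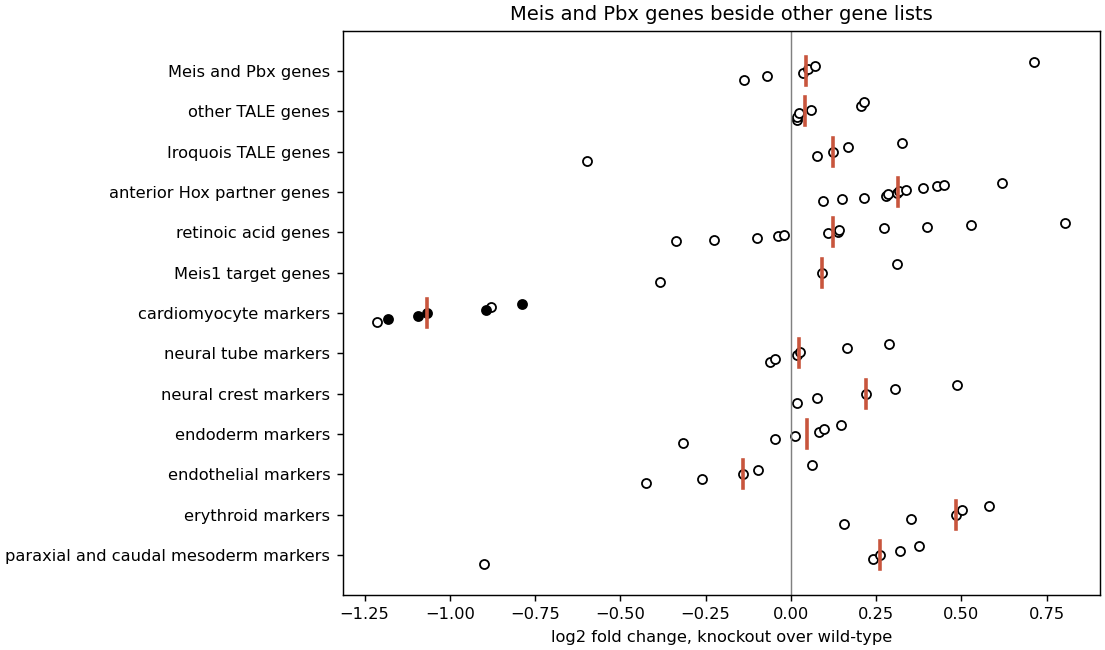
Log2 fold change, knockout over wild-type, of each fitted gene by list, with filled points for genes past an edgeR FDR of 0.05 and a red line at the median of the list. The medians of the Meis and Pbx genes and of the other TALE genes are 0.04 each. That of the anterior Hox genes is 0.31 (0.17 without knockout embryos 3 and 4, 0.51 without wild-type embryo 2). That of the cardiomyocyte markers, the only list shown with filled points, is -1.07.

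The genes whose log2 CPM followed each Meis or Pbx gene most closely over the 8 embryos were sought among genes of at least 5 CPM, as a description over points that share their libraries. For Meis1 these were Stau2 (Pearson r = 0.952), Tfb1m (0.939) and Aes (0.939), and for Meis2 they were 6430573F11Rik (0.960), Hoxa3 (0.931) and Cldn11 (0.921). For Meis3 they were Sik2 (0.967), Eefsec (0.917) and the retinoic acid receptor gene Rara (0.901). Hoxa3, at 3.76 CPM in wild-type embryo 1 and 9.09 CPM in wild-type embryo 2, followed Meis2 in its low and high wild-type embryos. For Pbx2 the nearest genes were Pex13 (0.986), Lnpk (0.955) and Zfp422 (0.949), and for Pbx3 Slc39a6 (0.984), Stk39 (0.973) and 0610010F05Rik (0.968). With 8 embryos and 11043 genes searched, such values are no test of a relation, and Pbx4 was below 5 CPM and was not included. None of these 15 genes passed the edgeR FDR, the lowest being that of Stk39 (0.431).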

How the data were processed

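RNA-seq was analysed from 4 Isl1 knockout and 4 wild-type E8.75 embryos. The authors prepared the libraries with 100 ng of RNA each, mapped reads to mm9 with STAR (introns of 20 to 500000 bases) and counted exon reads of RefSeq transcripts with HOMER on both strands, so the deposited count values were raw. The deposited RPKM values were computed by the authors with edgeR, and the deposited length was that of each transcript in bases. Versions of these tools were not given in the sources used here. The authors' columns of mean, fold change and p-value hold their own comparison and were not used.

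Of 31507 entries, 1 per symbol was kept. Genes were filtered with filterByExpr, scaled by TMM and tested with the edgeR 4.0.16 quasi-likelihood test (R 4.3.3, genotype as the only term, two-sided, Benjamini-Hochberg over 14075 genes, called FDR), with DESeq2 1.42.0 and limma 3.58.1 on log2(RPKM + 1) as alternatives. RPKM for levels were recomputed from counts with TMM scaling. Within-embryo ratios and neighbours in level were compared with exact permutation tests. The model was tested on simulated data of 14006 genes for 4 knockout against 4 wild-type libraries. It recovered 106 of 107 genes changed by 1 and 93 of 93 changed by 2 on the log2 scale, with 7 false calls. Smaller changes, such as the 0.71 estimated for Pbx4, were not tested there. How well changes are recovered in the embryos, where the spread differs between genes, was not tested. Replicate numbers come from the sample titles. Nothing in the labels ties equal numbers to a litter or day. The labels give each library as 1 embryo, so the spread is that between embryos.

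The members and gene lists were chosen with earlier results of these data known. Named were the 6 genes, Isl1, the other TALE genes, of each further list of partners or targets the genes past the FDR or else up to 3 with the smallest p, and the 3 most similar patterns per gene of at least 5 CPM. The cell-type lists are given by sums and counts, with genes named for the cardiomyocyte and second heart field markers. Coordinates and homeobox sequences came from GENCODE vM1 on NCBIM37 (mm9).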

Additional observations from a re-analysis of the deposited data

How the results depend on the processing

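Each value was recomputed under 255 combinations of result and alternative, of which 232 were labelled as unchanged. A fold change was unchanged if it kept its direction and the side of the threshold. A ratio was unchanged if it moved by less than the spread between embryos. A count of genes was unchanged if it was equal or within 1.5-fold, so counts that stayed at 0 are among the 232. The cause of the changes below was not tested. The log2 fold changes near 0 turned sign. That of Meis1 became -0.04 with Y-linked expression as a covariate and -0.02 without knockout embryos 3 and 4 (chosen after seeing the data), and ran from -0.01 to 0.17 when 1 embryo was left out. That of Meis2 became -0.04 and -0.02 in the same fits and ran from -0.01 to 0.09, and that of Meis3 became -0.01 with the Y-linked covariate and ran from -0.01 to 0.12. Pbx2 (-0.12 to -0.01) and Pbx3 (-0.23 to -0.07) stayed below 0 and Pbx4 above 0 in 16 of 16 alternatives. The Pbx4 estimate ran from 0.44 (limma) to 0.83 (without wild-type embryo 3) and its FDR from 0.0647 to 0.544. Of the 6 genes, 0 instead of 1 passed the thresholds of the study under limma, with the Y-linked covariate and without knockout embryos 3 and 4. The count of all genes past the edgeR FDR, 137, was 709 under DESeq2, 35 without knockout embryos 3 and 4, and 70 to 490 when 1 embryo was left out, with 490 without wild-type embryo 3, 70 without knockout embryo 4, 73 without wild-type embryo 1, 85 without wild-type embryo 2, 85 without wild-type embryo 4 and 81 without knockout embryo 1. Of the retinoic acid genes, 1 (Cyp26b1) passed under DESeq2 and without wild-type embryo 4, so that leaving out 1 embryo gave 0 to 1.

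With the replicate number as a block, Pbx4 was at 0.74 (edgeR FDR 0.182) and 76 genes passed the FDR. Deviations of same-numbered embryos correlated at 0.122, 0.199, 0.0577 and 0.543 for numbers 1 to 4, and only number 1 correlated best with its own number, so the embryos were treated as sharing only a number. The block changed no call at the FDR among the Meis, Pbx, other TALE, anterior Hox and retinoic acid genes. Depth limits the Pbx4 values most, with 41 to 101 reads per embryo, whereas each other Meis and Pbx gene had at least 596 reads in each embryo.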
